A study of Mus musculus with 12 samples.

Results

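MicroRNAs of extracellular vesicles were compared between NY and aFM, a pair of the 4 groups in a study of mouse bone marrow mesenchymal stem cells. The members were the rows of the deposited count table that carry a mouse miRNA name, 1978 of 3509 rows, read in the 3 NY and the 3 aFM libraries out of 12. Of these, 419 had at least 1 count in the 6 libraries and 1559 had none. An expression filter kept 132 for testing, which held at least 98.0% of the annotated counts of each of these libraries, and 287 detected miRNAs did not pass it. The other 1531 rows are predicted small RNA loci without a gene name and stayed out of the tests.

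The cells came from the bone marrow of specific-pathogen-free C57BL/6 mice, whose age and sex the labels leave out. Every group carries the same treatment label, an intervention with antigen. The design text describes cultures exposed for 48 h to ESPs, HCF or pLL at 2 µg/ml, vesicles collected by ultracentrifugation and small RNA sequencing. The groups are named DZ, aFM, NY and PLL, and no label says which preparation NY or aFM received or whether any group was unexposed. The comparison therefore asks how vesicle miRNAs differed between NY and aFM under those names alone. Replicates carry the letters A, B and C. No label ties the letters to separate cultures or animals, so every p-value reflects the spread among the sequenced libraries, and that spread may be technical.

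MicroRNAs are short RNAs that guide Argonaute proteins to messenger RNAs. Pairing rests mainly on the seed, the stretch from base 2 to base 8 of the mature strand, so miRNAs with the same seed form a family that can share targets. Vesicles released by mesenchymal stem cells carry a subset of the cell's miRNAs, and miR-21, miR-143 and the let-7 family are among those known to be abundant in stromal cells.

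The mature strands of 4 called miRNAs and of miR-22-3p, the next in order of p, are shown first, since their seeds all differ from one another. Bases in capitals are the seed, and sequences are from RefSeq (GRCm38.p6), in which 109 of the 132 tested miRNAs were matched by name.
miR-126a-3p: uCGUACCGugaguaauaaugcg
miR-9-5p: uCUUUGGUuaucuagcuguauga
miR-411-5p: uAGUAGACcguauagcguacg
miR-21a-5p: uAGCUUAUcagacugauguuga
miR-22-3p: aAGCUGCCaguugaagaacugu
Seeds could be compared for the 358 of 419 detected miRNAs matched by name. Of the 5 strands shown, miR-126a-3p, miR-9-5p, miR-411-5p and miR-22-3p shared their seed with no other of these 358. Among them, the seed of miR-21a-5p was shared only by miR-21c, which had 1 count in the 6 libraries.

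The NY libraries held 114613 to 151556 counts and the aFM libraries 148759 to 214303. Annotated miRNAs took 23.7% ± 6.23 of the counts in NY and 15.4% ± 4.61 in aFM (SD, n = 3 each). These shares overlapped, and an exact two-sided permutation test gave p = 0.2, where 3 against 3 cannot go below 0.1. The annotated counts were 28257 to 35114 in NY and 22903 to 29600 in aFM. Levels below are in CPM, counts per 1000000 counts of the tested miRNAs after TMM scaling, a method that evens out library composition. A count of 3, taken as the most that a listed 0 allows, is worth 94.6 to 101 CPM in NY and 92.1 to 129 CPM in aFM. These limits and the counting intervals below cover counting error only, because reads amplified without molecular identifiers can stem from the same molecule. The label of mesenchymal cells was set against 17 miRNAs known from stromal cells. All 17 had a count in at least 1 of the 6 libraries, but miR-31-5p had 0 counts in aFM and 5 in NY, and miR-145a-5p had 2 counts in aFM, both in replicate A. Markers of other lineages were present too. The erythroid list summed to 87616 to 122478 CPM in aFM and to 114401 to 229115 CPM in NY. Both copies of the identical miR-486a and miR-486b rows entered this sum, which inflates it in both groups. A single copy of the 5p strand had means of 37181 CPM in aFM and 67594 CPM in NY. In bulk vesicle RNA, fewer vesicles from a cell type and less of a miRNA per vesicle cannot be told apart.

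Of the 132 miRNAs tested with all 12 libraries, 1 was higher and 4 were lower in NY by edgeR's quasi-likelihood test with Benjamini-Hochberg adjustment at 0.05. The background of calls was 3.79% in all, 0.758% for higher and 3.03% for lower in NY. At an unadjusted p under 0.05 there were 36 miRNAs, or 27.3%, of which 20 had a positive and 16 a negative difference. In 32 miRNAs (24.2%) every NY library stood above every aFM library, and in 26 (19.7%) every NY library stood below. The endothelial miR-126a-3p, the neural miR-9-5p, the imprinted miR-411-5p and the osteoblast-linked miR-3960 were lower in NY, by 4.44-fold to 9.53-fold. The stromal miR-21a-5p was higher by 1.68-fold.

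miR-126a-3p, which restrains inhibitors of VEGF signalling and is best known from endothelial cells, was the call of smallest p. It stood at 4798, 5192 and 4666 CPM in aFM replicates A, B and C and at 370, 504 and 878 CPM in NY replicates A, B and C. The 6 libraries thus fell into separate ranges, with NY replicate C the highest of its group. The log2 fold change was -3.06 ± 0.46 (SE; edgeR adjusted p = 0.00346), an 8.31-fold lower level. Behind it were 403 counts in aFM and 53 in NY, whose ratio, scaled by library size, was 8.37 (95% counting interval 6.27 to 11.4). The mature strand maps to chr2:26591402-26591423 on the plus strand of GRCm38, overlapping an exon of Egfl7, a gene of endothelial cells, and an intron of Gm20532. The other arm, miR-126a-5p, had 3, 1 and 1 counts in aFM and 0 in each NY library. A ratio within a library does not depend on the scaling: per 100 counts of let-7i-5p there were 8.49 to 10.03 counts of miR-126a-3p in aFM and 0.786 to 1.66 in NY. The call held in each of 10 alternative settings and without any of the 12 libraries, with adjusted p up to 0.0389.

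miR-9-5p promotes neuronal differentiation and is also induced through NF-κB in myeloid cells. It stood at 35003, 36232 and 30454 CPM in aFM and at 7241, 7283 and 8345 CPM in NY. Replicates of either group lay close together and the groups were far apart. The log2 fold change was -2.15 ± 0.41 (SE; edgeR adjusted p = 0.0129), a 4.44-fold lower level, on 2779 counts in aFM and 693 in NY. Per 100 counts of let-7i-5p there were 55.4 to 70.0 counts in aFM and 12.02 to 15.8 in NY. The same mature strand maps to 3 genes in GRCm38: Mir9-1 at chr3:88215613-88215635, Mir9-2 at chr13:83738821-83738843 and Mir9-3 at chr7:79505279-79505301, all within long noncoding RNA genes on the plus strand, so the counts cannot be assigned to a gene. Its partner strand miR-9-3p was counted 2 times, both in NY replicate C. The call was lost when any single NY library was left out, with edgeR adjusted p of 0.102 (A), 0.101 (B) and 0.0667 (C) and log2 fold changes of -2.24 to -2.11. It was also lost when predicted loci entered the fit (-1.56, edgeR adjusted p = 0.0549).

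miR-411-5p belongs to the Dlk1-Dio3 cluster, an imprinted domain whose noncoding RNAs are expressed from the maternal chromosome. The aFM libraries held 30, 30 and 18 counts and each NY library 3, or 1285, 1121 and 553 CPM against 101, 94.6 and 101 CPM. The groups did not overlap, and the NY libraries sat at the counting limit of 3. miR-411-5p passed the expression filter through the aFM libraries alone. The log2 fold change was -3.25 ± 0.73 (SE; edgeR adjusted p = 0.027). The ratio of the counts, scaled by library size, was 9.54 in favour of aFM (95% counting interval 4.78 to 21.6). It lies at chr12:109710190-109710210 on the plus strand of GRCm38, outside any other annotated gene. Its partner strand miR-411-3p was seen 4 times in aFM and 0 times in NY. Leaving out any single library of either group ended the call. The edgeR adjusted p was 0.15, 0.155 and 0.0641 when aFM A, B and C were left out in turn and 0.127, 0.138 and 0.117 for NY A, B and C.

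miR-3960, described in osteoblasts together with miR-2861, had 123, 116 and 130 counts in aFM and 19, 25 and 20 in NY. In CPM it stood at 5270, 4333 and 3991 in aFM and at 640, 788 and 676 in NY, without overlap. The log2 fold change was -2.68 ± 0.65 (SE; edgeR adjusted p = 0.0357), a 6.42-fold lower level. Its partner miR-2861 had 2 counts in aFM and 0 in NY, too few to compare. This call too ended when any library of either group was left out. The edgeR adjusted p was then 0.149, 0.127 and 0.0934 for aFM A, B and C and 0.14, 0.138 and 0.117 for NY A, B and C. With predicted loci in the fit the log2 fold change was -2.04 (edgeR adjusted p = 0.0502).

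miR-21a-5p, a widely expressed miRNA that targets Pdcd4 and is abundant in stromal cells, was the only miRNA called higher in NY and, in counts pooled over the 6 libraries, the most abundant, although miR-148a-3p exceeded it in each aFM library. It stood at 66836, 79635 and 69534 CPM in aFM and at 122118, 132229 and 107542 CPM in NY. It took 7.50% ± 0.62 of the annotated counts in aFM and 11.7% ± 0.42 in NY (SD, n = 3 each). The log2 fold change was 0.74 ± 0.16 (SE; edgeR adjusted p = 0.027), a 1.68-fold higher level. Its mature strand maps to chr11:86584120-86584141 on the minus strand of GRCm38, overlapping an exon of Vmp1. The other arm, miR-21a-3p, had 1 count in aFM and 0 in NY. This call depended on the scaling: scaled by RLE factors, by upper quartiles or by plain totals, the log2 fold change was 0.62, 0.68 and 0.64 and did not pass (edgeR adjusted p = 0.0734, 0.0927 and 0.128). Nor did it pass without a filter, with predicted loci in the fit (1.34, edgeR adjusted p = 0.0995) or with DESeq2 (adjusted p = 0.116). Leaving out aFM A, B and C in turn gave an edgeR adjusted p of 0.216, 0.161 and 0.146, and leaving out NY A, B and C gave 0.127, 0.138 and 0.0679. PLL B and C gave 0.0799 and 0.0522.

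**Figure D1:**
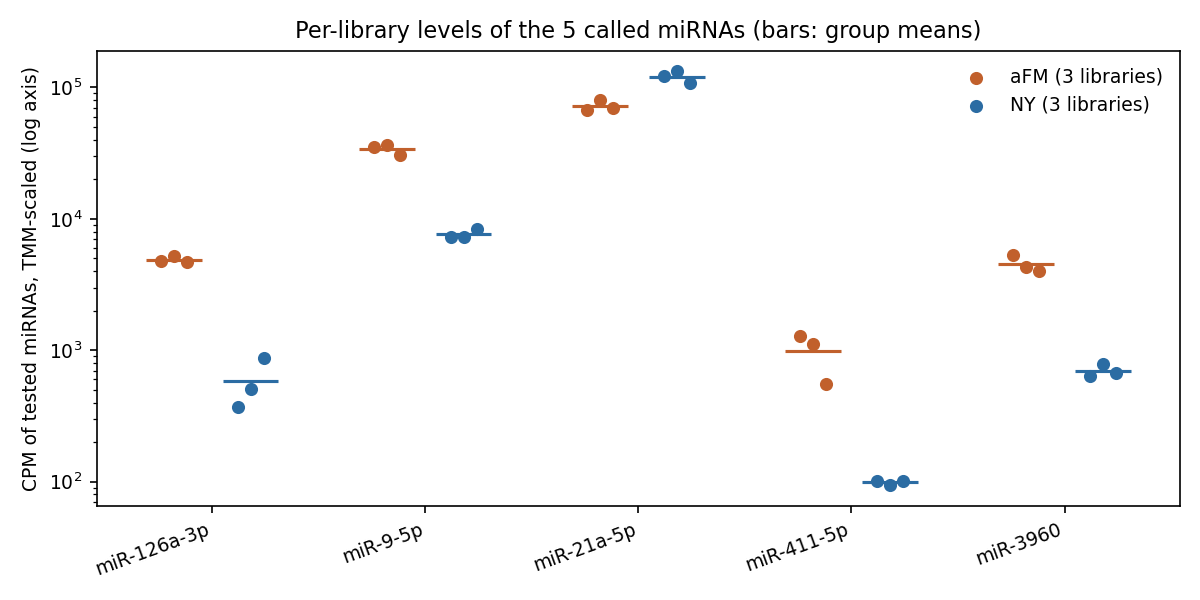
Levels of the 5 called miRNAs in each library, in TMM-scaled CPM of the tested miRNAs on a log axis, with 3 aFM and 3 NY libraries each as points and group means as bars. The NY points lie below all aFM points for miR-126a-3p, miR-9-5p, miR-411-5p and miR-3960 and above them for miR-21a-5p.

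The remaining groups place these levels. miR-9-5p ranged most widely, from 331 ± 257 CPM in DZ and 7623 ± 626 CPM in NY to 33896 ± 3044 CPM in aFM and 109434 ± 20094 CPM in PLL (SD, n = 3 each). miR-126a-3p stood at 804 ± 572 CPM in DZ and 1997 ± 305 CPM in PLL (SD, n = 3 each), both under the 4886 ± 273 CPM of aFM. miR-21a-5p stood at 107873 ± 17207 CPM in DZ and 89964 ± 8688 CPM in PLL (SD, n = 3 each), between the means of aFM and NY. miR-3960 stood at means of 267 CPM in DZ and 165 CPM in PLL, under both the aFM and the NY means. miR-411-5p had 1 count in DZ and 3 in PLL, which, like the 3 counts of each NY library, do not exceed the counting limit, so these groups cannot be ordered for it.

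The number of calls varied with the libraries that entered the fit. The common biological coefficient of variation, the spread between replicates beyond counting error, was 19.8% within aFM and 25.0% within NY, against 50.1% within DZ and 51.2% within PLL. It was 40.4% over the 12 libraries that entered the test together. With the 6 NY and aFM libraries alone, it was 22.1%, and 29 of 116 miRNAs were called, 12 higher and 17 lower in NY, all 5 of the calls above among them. That fit also tested fewer miRNAs and had its own scaling, and the part of the spread alone was not tested. The call of smallest p there was miR-122-5p, a liver miRNA, with a log2 fold change of -2.58 ± 0.17 (SE; edgeR adjusted p = 5.89e-08). Also called there, but not in the 132-miRNA test, were miR-381-3p (-3.08), miR-99a-5p (-0.88), miR-151-3p (-0.94), miR-409-3p (-2.21) and miR-148a-3p (-0.86) on the lower side. On the higher side were miR-206-3p (2.40), miR-23b-3p (1.11) and miR-22-3p (0.67), each value a log2 fold change of the fit with 6 libraries. DESeq2 on all 12 libraries called 14, 1 higher and 13 lower. Among them were miR-122-5p, miR-381-3p, miR-409-3p, miR-151-3p and miR-206-3p. Without a filter edgeR on the 12 libraries called 11, with miR-122-5p, miR-381-3p, miR-409-3p and miR-206-3p among them. With a minimum count of 50 it called miR-151-3p and miR-22-3p. When single libraries were left out, the number of calls was 1 for each NY library and 2 for each aFM library. It was 9, 8 and 9 for DZ A, B and C and 12, 4 and 5 for PLL A, B and C.

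**Figure D2:**
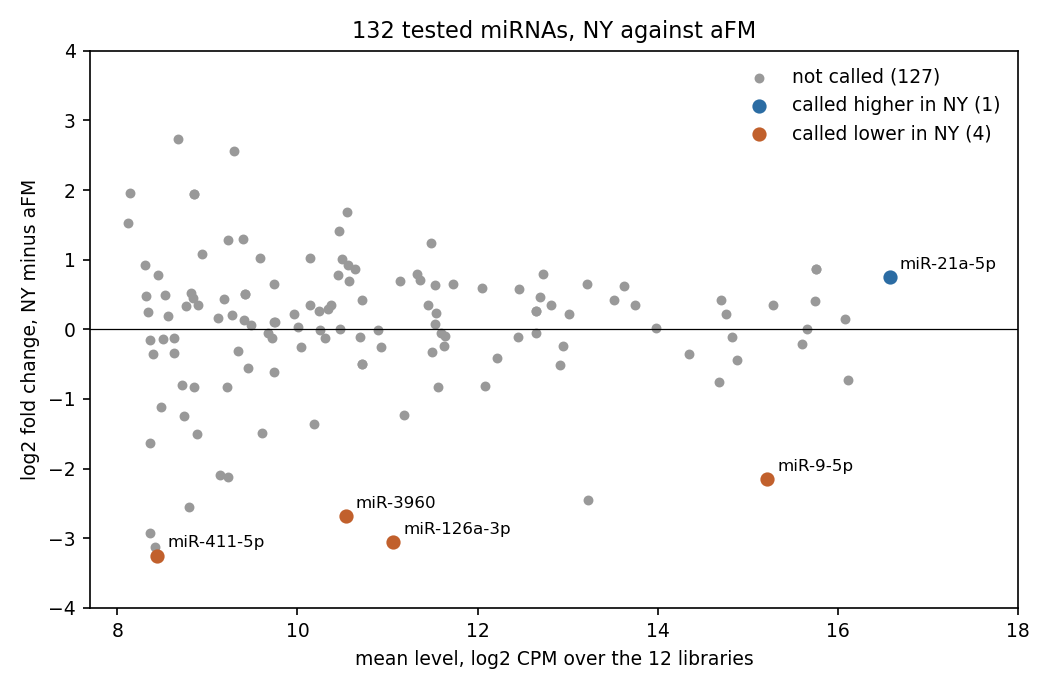
Log2 fold change of NY minus aFM (vertical axis) against the mean level in log2 CPM over the 12 libraries (horizontal axis) for the 132 tested miRNAs. The 1 miRNA called higher and the 4 called lower are coloured and named, and the 127 others are grey.

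**Figure D3:**
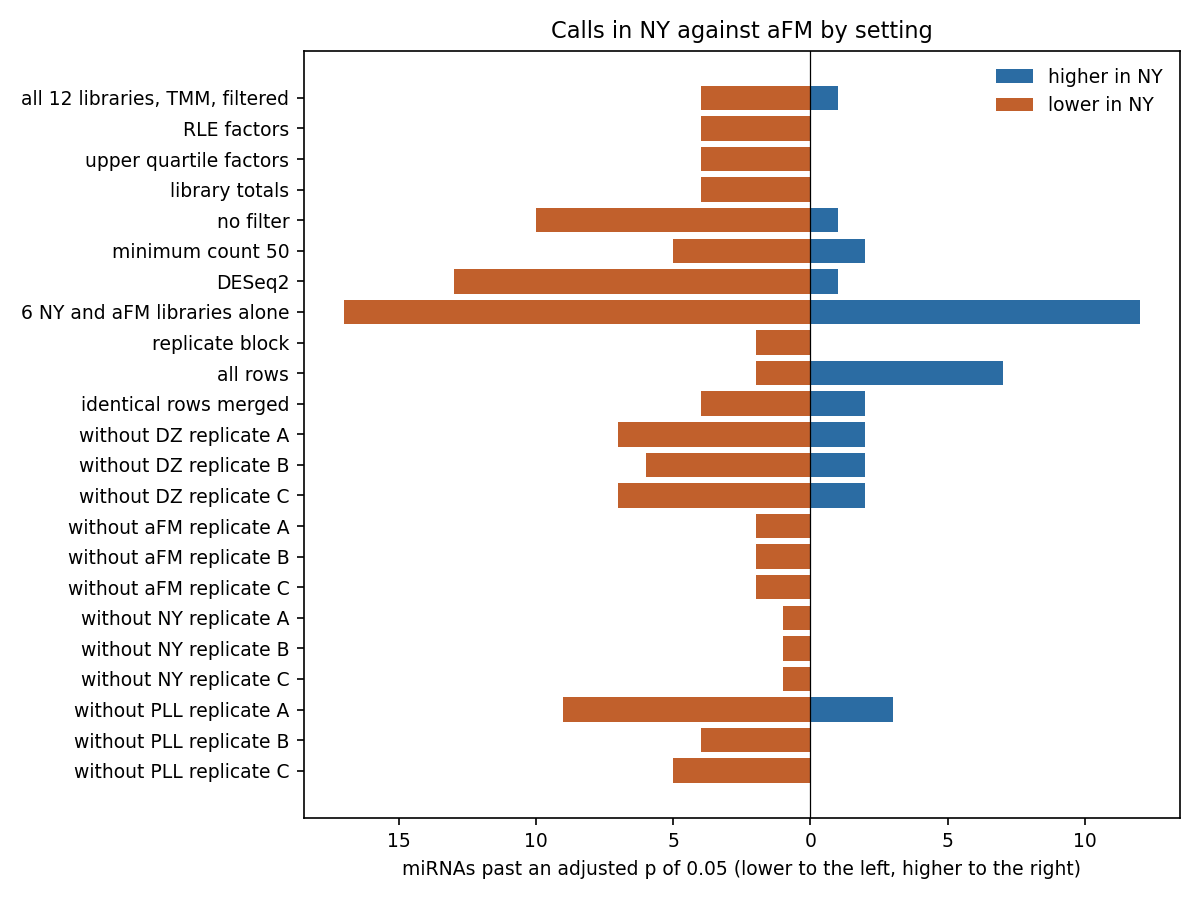
Numbers of miRNAs called higher (to the right) and lower (to the left) in NY at an adjusted p of 0.05, for the test with 12 libraries and each alternative. The bars run from 1 call, when an NY library is left out, to 29 calls with the 6 NY and aFM libraries alone.

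Next in order of p stood miRNAs that the test with 12 libraries did not call. miR-22-3p, a muscle and stromal miRNA, missed the threshold narrowly, at 5527, 4482 and 4482 CPM in aFM and 8891, 8639 and 7670 CPM in NY. Its log2 fold change was 0.80 ± 0.21 (SE; edgeR adjusted p = 0.0502), and the groups did not overlap. Once rows with identical counts were merged it was called, so that 6 miRNAs passed in place of 5. miR-151-3p stood at 6127, 6499 and 5925 CPM in aFM and at 3199, 3878 and 3480 CPM in NY (log2 fold change -0.81 ± 0.23, SE; edgeR adjusted p = 0.063). miR-328-3p stood at 557, 635 and 890 CPM in aFM and at 1414, 2711 and 1487 CPM in NY (log2 fold change 1.42 ± 0.41, SE; edgeR adjusted p = 0.063). Neither pair of groups overlapped. miR-210-3p, induced by low oxygen through hypoxia-inducible factor, had 0, 3 and 2 counts in aFM and 7, 9 and 22 in NY. The ratio of these counts, scaled by library size, was 6.91 in favour of NY (95% counting interval 2.71 to 22.5; edgeR adjusted p = 0.063), with NY replicate C the highest. Its log2 fold change of 2.73 was 2.03 without NY replicate C and 3.39 without aFM replicate B, and it was called only with predicted loci in the fit (3.16, edgeR adjusted p = 0.0136).

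The most abundant miRNAs made up much of either group's vesicle RNA. The 10 largest took 56.6% ± 3.01 of the annotated counts in aFM and 61.9% ± 2.91 in NY (SD, n = 3 each; exact permutation p = 0.2, the smallest possible being 0.1). Both copies of the identical miR-486a-5p and miR-486b-5p rows are among the 10, each at 3.88% in aFM and 6.50% in NY. miR-148a-3p, a miRNA that targets the DNA methyltransferase Dnmt1, was the most abundant in aFM, at 83930, 91588 and 95476 CPM, and stood at 51595, 60156 and 51828 CPM in NY. Those ranges did not overlap, but the difference was not called (log2 fold change -0.73 ± 0.44, SE; edgeR adjusted p = 0.31). In the PLL libraries of the same fit, miR-148a-3p stood at 176869 CPM in replicate A and at 45777 and 41891 CPM in B and C. With PLL A left out it was called lower in NY (edgeR adjusted p = 0.00379). The smooth muscle and stromal miR-143-3p stood at 68018 to 82645 CPM in aFM and 78808 to 87338 CPM in NY, which overlap. miR-26a-5p, linked to osteogenic differentiation, stood at 47676 to 54668 CPM in aFM and 41963 to 45527 CPM in NY (log2 fold change -0.21 ± 0.28, SE; edgeR adjusted p = 0.744). miR-486a-5p and miR-486b-5p are identical rows and 1 measurement, at 35260, 38585 and 37699 CPM in aFM and 60823, 94522 and 47436 CPM in NY. Over all 132 tested miRNAs the Pearson correlation of log2 CPM was 0.951 to 0.953 between NY libraries, 0.952 to 0.969 between aFM libraries and 0.873 to 0.919 between libraries of different groups. These correlations run across miRNAs of libraries that share a table and a scaling, and miRNAs are not replicates.

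let-7 miRNAs restrain growth and stem cell genes such as Lin28, Hmga2 and Myc, and in these vesicles the family summed to the largest share of any seed. Its guide strands are shown because they differ by few bases outside a common seed, again in capitals, and yet did not stand in the same order in both groups.
let-7a-5p: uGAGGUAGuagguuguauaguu
let-7b-5p: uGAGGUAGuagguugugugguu
let-7c-5p: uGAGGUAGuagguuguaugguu
let-7f-5p: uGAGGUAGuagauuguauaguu
let-7g-5p: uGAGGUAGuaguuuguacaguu
let-7i-5p: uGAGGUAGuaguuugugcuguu
Counted from the 5′ end and relative to let-7a-5p, let-7c-5p has the single change A19G, let-7b-5p has A17G and A19G, and let-7f-5p has G12A. Reads that carry an error at such a position could move between members.

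Of 9 tested let-7 members 0 were called, and their median log2 fold change was -0.11, beside 0.18 for all 132 tested miRNAs. At an unadjusted p under 0.05 there were 3 (let-7a-5p, let-7b-5p and let-7c-5p), beside 27.3% of all 132. DESeq2 called 0, and with the 6 libraries alone edgeR called let-7a-5p (-0.57, adjusted p = 0.0145). let-7c-5p stood at 49227, 51733 and 51544 CPM in aFM and 63181, 72073 and 66559 CPM in NY (log2 fold change 0.40 ± 0.14, SE; edgeR adjusted p = 0.088). let-7b-5p stood at 39073, 39220 and 44975 CPM in aFM and 50989, 53598 and 52403 CPM in NY (0.35 ± 0.15, SE; edgeR adjusted p = 0.159). In these members, which share A19G, every NY library stood above every aFM library. let-7a-5p went the other way, at 34618, 37165 and 32971 CPM in aFM and 24619, 24876 and 27637 CPM in NY (-0.44 ± 0.19, SE; edgeR adjusted p = 0.159). let-7g-5p stood at 6873 to 7540 CPM in aFM and 5612 to 6264 CPM in NY, also without overlap. For let-7d-5p, let-7e-5p, let-7f-5p, let-7i-5p and miR-98-5p the groups overlapped. Summed over the seed, let-7 stood at 223129 to 226624 CPM in aFM and 229957 to 249073 CPM in NY. When predicted loci also entered the scaling, the log2 fold change of let-7a-5p was 0.14, of the opposite sign.

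**Figure D4:**
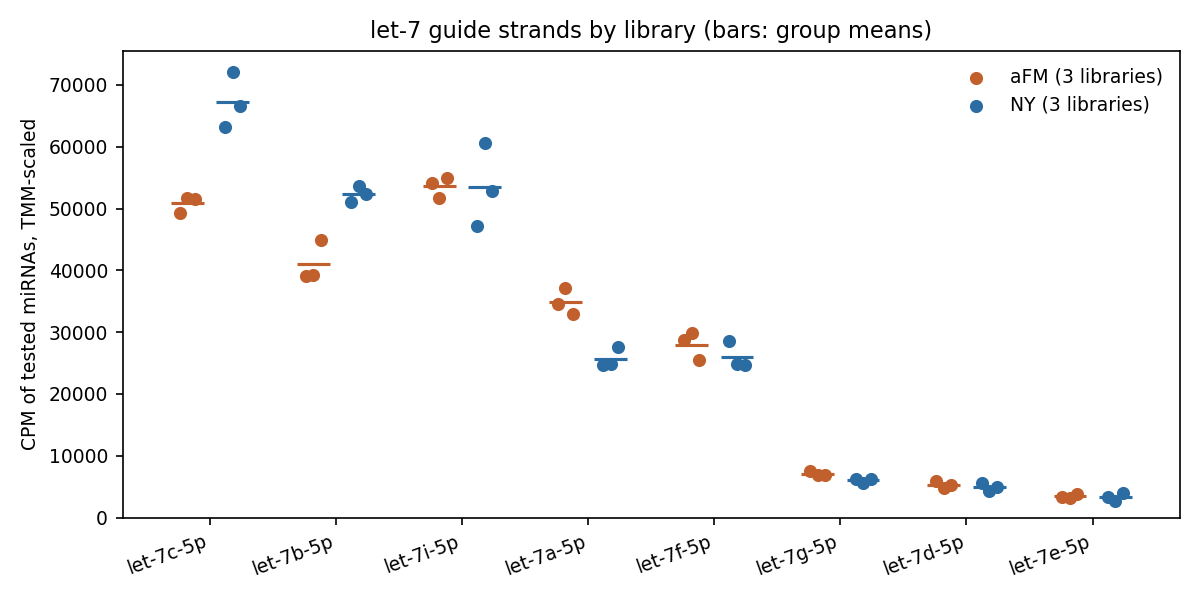
Levels of 8 let-7 guide strands in each of the 3 aFM and 3 NY libraries (points; bars are group means), in TMM-scaled CPM of the tested miRNAs. let-7c-5p and let-7b-5p lie higher in the NY libraries, let-7a-5p and let-7g-5p lower, and the other 4 overlap.

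Other seed families showed where the weight of a seed sat. The miR-148 and miR-152 seed CAGUGCA summed to 87572 to 98423 CPM in aFM and 54227 to 64286 CPM in NY, and miR-148a-3p made up nearly all of it. The ranges of miR-152-3p and miR-148b-3p, the other members, overlapped between the groups. The seed ACCCGUA of miR-99 and miR-100 held members of opposite sign. miR-99a-5p stood at 25204 to 33504 CPM in aFM and 17183 to 18549 CPM in NY, whereas miR-99b-5p stood at 6088 to 7626 CPM in aFM and 8109 to 9194 CPM in NY. miR-100-5p overlapped, at 7306 to 10325 CPM in aFM and 10247 to 12535 CPM in NY. None of these 3 was called with 12 libraries (log2 fold change -0.76, 0.35 and 0.42). In PLL, miR-99a-5p stood at 96510 CPM in replicate A and at 16509 and 15580 CPM in B and C, and it was called with PLL A left out. The seed CCCUGAG, mainly miR-125b-5p and miR-125a-5p, summed to 7092 to 7840 CPM in aFM and 10058 to 13539 CPM in NY.

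The Dlk1-Dio3 list had 39 entries, of which 23 were detected and 5 tested. All 5 had a negative log2 fold change, miR-411-5p alone was called, and the median was -2.10, beside 0.18 for all tested miRNAs. miR-411-5p and miR-381-3p passed the filter through the aFM libraries alone, where they were high, so the filter favoured a negative sign for them. The shared sign and the median are therefore descriptions and not support for a lower cluster. The strands of the members next to miR-411-5p in size of difference are shown for their distinct seeds.
miR-381-3p: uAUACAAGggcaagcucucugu
miR-409-3p: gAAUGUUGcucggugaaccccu
miR-381-3p, at chr12:109726870-109726891, had 13, 19 and 27 counts in aFM and 3, 2 and 3 in NY (log2 fold change -2.93 ± 0.84, SE; edgeR adjusted p = 0.063). miR-409-3p, at chr12:109743204-109743225 in an intron of Mirg, had 29, 37 and 31 counts in aFM and 5, 8 and 12 in NY (-2.10 ± 0.62, SE; edgeR adjusted p = 0.0682). Both are on the plus strand of GRCm38, as miR-411-5p is, and in neither did the groups overlap. miR-127-3p, which lies antisense to the retrotransposon-derived gene Rtl1, stood at 1718 to 2517 CPM in aFM and 504 to 1212 CPM in NY. miR-379-5p overlapped, at 343 to 860 CPM in aFM and 158 to 372 CPM in NY. Summed over the detected list, the cluster stood at 6611 to 7890 CPM in aFM and 1671 to 2703 CPM in NY.

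The cluster's 18 detected but untested members did not all lie on the same side. Counts were more numerous in aFM for 10, in NY for 6 and equal for 2, with 136 counts in aFM and 73 in NY in all. miR-543-3p had 10, 7 and 18 counts in aFM and 0, 1 and 5 in NY. miR-495-3p had 9, 1 and 3 counts and miR-494-3p 2, 6 and 2 counts in aFM, and both had 0 in every NY library. In contrast miR-434-5p had 2, 2 and 4 counts in aFM and 7, 2 and 10 in NY. Such counts are at or near the limit of detection and carry no test.

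Among 13 tested stromal miRNAs, 1 was called, miR-21a-5p, and 11 had a positive log2 fold change, beside 76 of all 132. The median was 0.35, beside 0.18 for all 132 tested miRNAs, of which 3.79% were called. The 4 stromal miRNAs that were detected but not tested had 58 counts in aFM and 27 in NY, among them miR-218-5p with 30 and 8 and miR-199b-5p with 19 and 5. The list includes miR-199a-3p and miR-199b-3p, which are identical rows, and miR-21a-5p and miR-143-3p held most of its sum. The fibroblast miRNA miR-125b-5p stood at 3500 to 4927 CPM in aFM and 5454 to 8184 CPM in NY. The sum of the list was 172593 to 190739 CPM in aFM and 241472 to 257901 CPM in NY. Of 5 tested collagen and bone miRNAs, miR-3960 was called and the median was -0.11, beside the same 0.18 and 3.79%. miR-29a-3p, which targets collagen messages, stood at 1714, 1382 and 1320 CPM in aFM and 2694, 1955 and 2500 CPM in NY (log2 fold change 0.70 ± 0.32, SE; edgeR adjusted p = 0.179).

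Of 5 tested NF-κB and inflammation miRNAs, miR-21a-5p was called higher and miR-9-5p lower in NY. The same calls are counted in the stromal and neural lists. The median was 0.65, beside 0.18 for all 132 tested miRNAs, of which 3.79% were called. miR-146a-5p and miR-146b-5p, which restrain NF-κB signalling through Traf6 and Irak1, had mean levels of 538 and 571 CPM in aFM and of 950 and 681 CPM in NY, with overlapping groups. miR-155-5p, induced in activated immune cells, had 15 counts in aFM and 13 in NY and was not tested.

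**Figure D5:**
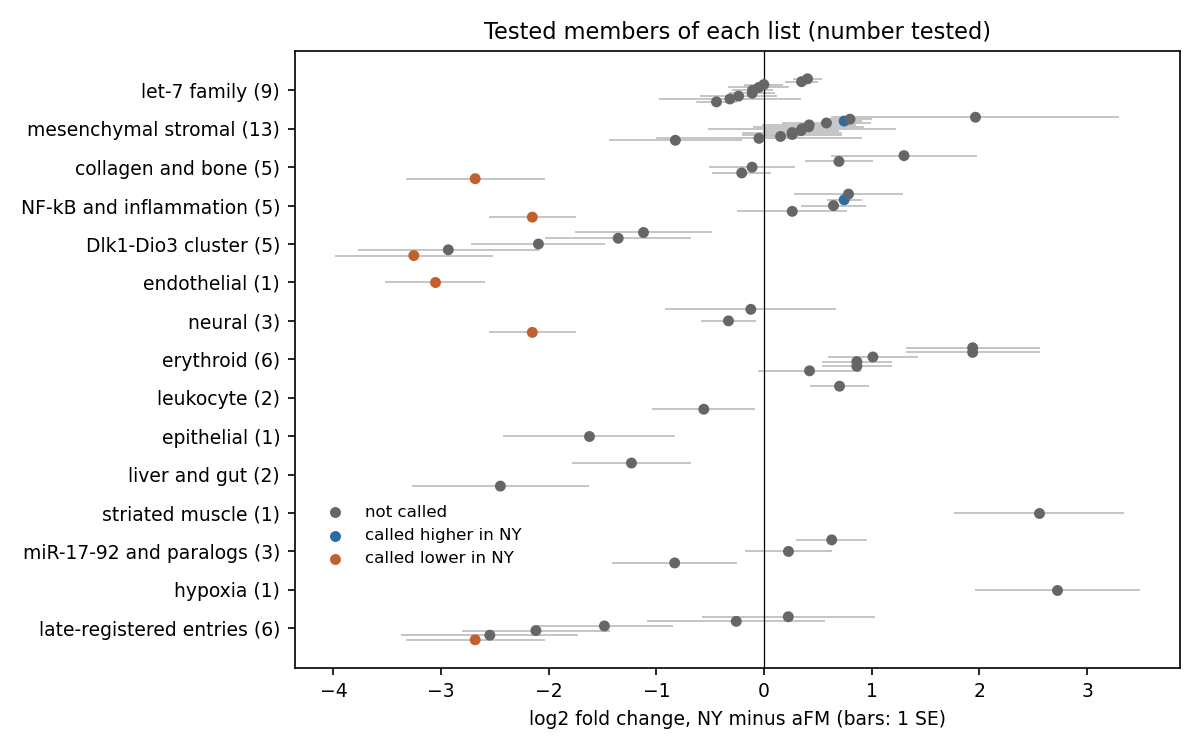
Log2 fold change of NY minus aFM with 1 SE for each tested member of 15 miRNA lists, with the number tested in parentheses. Coloured points are called (adjusted p under 0.05), and all 5 tested members of the Dlk1-Dio3 cluster lie left of 0. Of these, miR-411-5p and miR-381-3p passed the filter through the aFM libraries alone.

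Of the lists for other cell types, the endothelial list held 1 call among 1 tested and the neural list 1 among 3. The liver and gut, muscle, erythroid, leukocyte and epithelial lists held 0 among 2, 1, 6, 2 and 1 tested rows. Over all 132 tested miRNAs 3.79% were called, so lists this small cannot be told apart by their calls. The liver and gut list summed to 15872 to 19461 CPM in aFM and 3815 to 3974 CPM in NY. It was mostly miR-122-5p, the main miRNA of hepatocytes, at 15124, 15949 and 13723 CPM in aFM and 2627, 2459 and 3108 CPM in NY (log2 fold change -2.45 ± 0.82, SE; edgeR adjusted p = 0.088). In DZ replicates A, B and C it stood at 1920, 4393 and 38727 CPM, and it was called when DZ A or DZ C was left out. With all 12 libraries, DESeq2 and edgeR without a filter also called it lower in NY. miR-192-5p stood at 2871, 2876 and 1995 CPM in aFM and 1179, 1293 and 811 CPM in NY (-1.23 ± 0.55, SE; edgeR adjusted p = 0.168). The groups did not overlap for either, and both were called with the 6 libraries alone.

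The endothelial list held miR-126a-3p and 5 counts of miR-126a-5p, with miR-126b-3p and miR-126b-5p at 0 in the 6 libraries. The neural list summed to 34230 to 40658 CPM in aFM and 10814 to 11454 CPM in NY, and miR-9-5p made up most of it. Its other tested members were not called: miR-128-3p stood at 3063 to 4541 CPM in aFM and 2554 to 3166 CPM in NY and overlapped, as did miR-129-5p. Among untested members, miR-218-5p had 5, 16 and 9 counts in aFM and 1, 5 and 2 in NY, a scaled ratio of 4.13 in favour of aFM (95% counting interval 1.85 to 10.4). miR-124-3p, the defining miRNA of neurons, had 4, 6 and 2 counts in aFM and 1, 1 and 0 in NY (scaled ratio 6.60, 95% counting interval 1.47 to 60.8). miR-132-3p had 8 counts in aFM and 14 in NY, and miR-137-3p, miR-138-5p and miR-219a-5p were at 0.

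The muscle list had 1 tested member, miR-206-3p of skeletal muscle, which the filtered edgeR test with 12 libraries did not call. Its strand is shown because it had the largest positive difference among the tested markers of other cell types.
miR-206-3p: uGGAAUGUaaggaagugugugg
miR-206-3p had 3, 5 and 14 counts in aFM and 37, 59 and 43 in NY. The ratio of these counts, scaled by library size, was 5.74 in favour of NY (95% counting interval 3.64 to 9.46). Without the NY libraries, too few libraries reached the filter's threshold for miR-206-3p to be tested, so the filter favoured a positive sign for it. Its log2 fold change was 2.55 ± 0.79 (SE; edgeR adjusted p = 0.0768). When single libraries were left out it ranged from 2.18 to 3.20, the highest without aFM replicate C. With all 12 libraries, DESeq2 called it (adjusted p = 0.0495), and so did edgeR without a filter. miR-1a-3p had 4, 1 and 0 counts in aFM and 8, 17 and 21 in NY, for which the ratio was 8.36 (95% counting interval 3.33 to 27.0). miR-499-5p had 1 count in aFM and 11 in NY, miR-133a-3p 0 and 9, and miR-133b-3p 0 and 4. The heart miRNAs miR-208a-3p and miR-208b-3p were at 0 in the 6 libraries. The sum of the muscle list was 224 to 460 CPM in aFM and 1920 to 2680 CPM in NY.

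Red cell miRNAs were abundant in both groups. The 6 tested erythroid rows are 4 measurements, since the miR-486a and miR-486b rows are copies. All 6 tested rows had a positive log2 fold change, beside 76 of all 132 tested miRNAs, and edgeR called 0. The 5 rows with an unadjusted p under 0.05, beside 27.3% of all 132, include both copies of each miR-486 strand. With edgeR on the 6 libraries alone both strands of miR-486 were called, and DESeq2 on 12 libraries called neither. The 2 untested members lay on the other side: miR-144-3p had 1, 6 and 3 counts in aFM and 0 in each NY library, and miR-144-5p had 6 counts in aFM and 3 in NY. miR-451a, matured by Argonaute 2 without Dicer, stood at 16238, 44150 and 10898 CPM in aFM and 41357, 37140 and 17028 CPM in NY. aFM replicate B was the highest of the 6 libraries, so the groups overlapped. miR-16-2-3p stood at 685, 710 and 706 CPM in aFM and 1482, 1450 and 1318 CPM in NY (log2 fold change 1.01 ± 0.42, SE; edgeR adjusted p = 0.145). The leukocyte miRNA miR-142a-5p stood at 1504 to 1980 CPM in aFM and 2095 to 3334 CPM in NY, whereas its other arm miR-142a-3p had 6 counts in aFM and 0 in NY. The epithelial miR-200b-3p had 26 counts in aFM and 9 in NY, and the summed epithelial list overlapped. The part of these other-lineage miRNAs in the differences between NY and aFM was not tested.

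Of the 6 tested miRNAs on a hand-made list of late registry entries, some of which are of debated biogenesis, miR-3960 was called. In 5 the log2 fold change was negative, beside 56 of all 132 tested miRNAs, and the median was -1.80, beside 0.18. miR-5099 stood at 1757, 1083 and 1259 CPM in aFM and 337, 126 and 473 CPM in NY (log2 fold change -2.12 ± 0.68, SE; edgeR adjusted p = 0.0768). Without the aFM libraries, where it was high, too few libraries reached the filter's threshold for miR-5099 to be tested. The filter thus favoured a negative sign for it, and the signs and median of the list are descriptions. miR-1895 had 17 counts in aFM and 3 in NY. miR-5124a stood at 635 to 1500 CPM in aFM and 315 to 338 CPM in NY. miR-5106 and miR-5126 overlapped between the groups. Outside the list the signs differed: of 8 further tested miRNAs with a registry number of 1000 or more, 6 had a positive log2 fold change and edgeR called 0, so that 7 of all 14 were positive. The largest of these was miR-6538 (1.69, edgeR adjusted p = 0.168), which was called higher with the 6 libraries alone and with predicted loci in the fit. Among 3 tested members of the growth-promoting miR-17-92 cluster and its paralogs 0 had an unadjusted p under 0.05, beside 27.3% of all 132. Of the 3, edgeR called 0 with 12 or with 6 libraries and DESeq2 called 0, and in all 3 the groups overlapped. Of 9 untested members counts were more numerous in aFM for 7, in NY for 1 and equal for 1, and DESeq2 called miR-17-3p lower in NY, on 20 counts in aFM and 0 in NY. Of the tested members, miR-92a-3p stood at 7706 to 12214 CPM in aFM and 9494 to 20682 CPM in NY.

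The arms of a hairpin were also compared with each other. The strands miR-181a-5p, miR-125b-5p, miR-24-3p and miR-16-5p are encoded by other hairpins too, so their shares are not those of a single precursor. In 14 hairpins with enough counts on both arms, the share of the minor arm stood higher in every NY library than in every aFM library in 4, lower in 0 and overlapped in 10. For comparison, the levels of all 132 tested miRNAs stood higher in every NY library in 24.2% and lower in 19.7%. The 4 are therefore given as a description. For let-7d the share of let-7d-3p was 12.6% ± 1.78 in aFM and 24.3% ± 7.43 in NY (SD, n = 3 each). For miR-423 the share of miR-423-3p was 12.2% ± 0.15 and 14.2% ± 1.46 (SD, n = 3 each). The other 2 rested on few counts: miR-27b-5p had 2 counts in aFM and 19 in NY, and miR-181a-2-3p had 3 and 17.

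Detection also differed at the lower end. Each NY library held 249 to 251 detected miRNAs and each aFM library 260 to 273, where their annotated counts were 28257 to 35114 and 22903 to 29600 (exact two-sided permutation p = 0.1, the smallest possible). Of the 419 detected miRNAs, 12 had counts in all 3 aFM libraries and in 0 NY libraries, and 0 had the reverse pattern. Counted in at least 1 library, 83 were seen in aFM only and 68 in NY only. The largest of the 12 by count were miR-17-3p with 13, 4 and 3 counts, miR-339-5p with 4, 9 and 6, and miR-25-5p with 4, 9 and 3. A count of 0 in the NY libraries allows up to 94.6 to 101 CPM each, so lower levels there were not detectable at this depth. miR-339-5p was also called lower in NY by DESeq2 and by edgeR without a filter.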

How the data were processed

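The values are raw whole-number counts per row and library in the table the authors deposited, with no normalization visible in them. FastQC, STAR, StringTie and DESeq2 and the build mm39 are named, without versions or roles, per the submitters' processing notes. The sources used here do not give the miRNA caller. The extraction protocol speaks of messenger RNA libraries, per the labels, whereas the design text names a small RNA kit.

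All 12 libraries, grouped by title, entered a single edgeR 4.0.16 quasi-likelihood fit (R 4.3.3, limma 3.58.1) with a term per group, TMM factors on annotated counts and filterByExpr (minimum count 10, minimum total 15). The contrast was NY minus aFM, tested two-sided, and p-values were adjusted by Benjamini-Hochberg over all 132 tested miRNAs. The SE is the log2 fold change divided by the square root of F. Single values per library were compared by exact permutation tests, and ratios of pooled counts carry exact 95% binomial intervals. Totals were 114613 to 214303 counts in the 6 libraries compared. Predicted loci name no gene and stayed out of library sizes. In chi-square tests, no pair of replicates within NY or aFM agreed within sampling noise. The script was tested on simulated data. Alternatives were other scaling factors, filters, DESeq2 1.42.0, the 6 libraries alone, a replicate block, all rows, merged identical rows and leaving out each library.

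Named miRNAs were all calls, then those of smallest p up to 15 per direction, the 10 most abundant, and of each list the called members and the tested member of smallest p; others were chosen after their values were seen. The comparison, its members and the lists were chosen with earlier results of these data known. Sequences and mature-strand positions are from RefSeq and GENCODE on GRCm38, and no coordinate was taken from the deposited table.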

Additional observations from a re-analysis of the deposited data

Results flagged for a closer look

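Predicted small RNA loci, which stayed out of the comparison, held most of the counts. Their median share was 78.29% of all counts in the 3 NY libraries and 84.51% in the 3 aFM libraries, and the single values overlapped (69.4% to 81.4% in NY, 80.1% to 89.3% in aFM; exact two-sided permutation p = 0.2, the smallest possible being 0.1). They were singled out because they carry signal outside the annotated miRNAs. In the fit over all rows, 712 such loci were tested, of which 104 were higher and 100 lower in NY (edgeR, Benjamini-Hochberg adjustment).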

How the results depend on the processing

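miR-126a-3p was called in all 10 alternative settings and without each of the 12 libraries, with log2 fold changes of -3.49 to -2.52. The count of 5 calls (1 higher, 4 lower) moved. It was 11 without a filter (10 lower), 14 with DESeq2 (13 lower), 29 with the 6 NY and aFM libraries alone (12 higher, 17 lower) and 9 with all rows (7 higher, 2 lower), where the median annotated miRNA stood at 0.75 on the log2 scale in place of 0.18. Of the higher calls, edgeR made 0 with RLE factors, 0 with upper quartile factors and 0 with library totals, where 31, 29 and 30 miRNAs in either direction had an unadjusted p under 0.05 and DESeq2 made 1. It made 2 with a minimum count of 50 and 2 with identical rows merged. With the letter as a replicate block there were 2 calls, 0 higher and 2 lower (miR-126a-3p and miR-9-5p), and 36 at an unadjusted p under 0.05. The letters were not shown to pair the libraries, since deviations from the group means correlated at -0.03, 0.04 and 0.07 for A, B and C. Leaving out each library in turn gave 1 to 12 calls, with 0 to 3 higher and 1 to 9 lower.

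With all rows the log2 fold changes of let-7a-5p (0.14), let-7i-5p (0.60) and miR-26a-5p (0.40) changed sign, and let-7i-5p, at -0.0018, was also positive with identical rows merged (0.027) and ranged from -0.090 to 0.063 when single libraries were left out. Except where fewer miRNAs or libraries entered by construction, the cause was not tested. Counts of 3 in a library are worth 92.1 to 129 CPM in the 6 libraries, which limits miRNAs such as miR-411-5p and miR-210-3p.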

Other observations

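miR-493-5p, a member of the imprinted Dlk1-Dio3 domain outside the list used and below the expression filter, was chosen after its values were seen. It had 7, 15 and 23 counts in aFM and 1, 0 and 2 in NY, a scaled ratio of 16.5 (95% counting interval 5.30 to 83.1), and DESeq2 and edgeR without a filter both called it lower in NY. miR-709, also chosen after its values were seen, had a log2 fold change of -3.13 ± 1.51 (SE; edgeR adjusted p = 0.198), close to that of miR-411-5p in size, on 26 counts in aFM and 3 in NY.

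From the Mir16-2 hairpin, the strand usually taken for the passenger exceeded the guide in both groups. miR-16-2-3p had 58 counts in aFM and 129 in NY, and miR-16-5p, which other hairpins also encode, had 13 and 16.

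GC content of the mature strand showed little relation to the difference between NY and aFM. Across the 109 tested miRNAs with a RefSeq sequence, Pearson's r between GC percent and the log2 fold change was 0.072, given as a description across miRNAs that share libraries.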
